A study of Rattus norvegicus with 12 samples.

Results

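The Hedgehog ligands Ihh, Shh and Dhh, the receptors Ptch1, Hhip and Smo, and the transcription factors Gli1, Gli2 and Gli3 are 9 of the 28727 named genes counted in INS-1 cells. They were chosen from values measured in these same groups, so their levels and differences are given here as a description, without a test. Among them, Ihh mRNA was near the detection limit in cells transduced with GFP at 2 mM glucose and was higher at 11 mM glucose and in the ChREBPβ-labelled libraries. Ptch1 and Hhip mRNA were lower in the ChREBPβ-labelled libraries at both glucose concentrations. Shh and Gli1 gave at most 2 reads in any library, and Smo, Gli2 and Gli3 at most 8.

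Hedgehog ligands are secreted proteins that bind Ptch1, a receptor that restrains the membrane protein Smo as long as no ligand is bound. Released Smo acts at the primary cilium to turn Gli factors into activators, and Ptch1, Hhip and Gli1 are themselves well-known targets of this signal. In pancreas development Shh is kept out of the pancreatic bud, while Ihh and Dhh are known in islets and Hedgehog signalling is known to affect insulin and Pdx1 in INS-1 cells.

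The INS-1 cells were of the 832/13 line, derived from a rat insulinoma that secretes insulin. They were transduced with an adenovirus for GFP, the control, or for mouse ChREBPβ tagged with mCherry (ChREBPβ being the shorter form of a transcription factor that responds to glucose, encoded by Mlxipl), and kept at 2 mM or 11 mM glucose for 48 h. Each of the 4 groups (GFP at 2 mM, GFP at 11 mM, ChREBPβ at 2 mM and ChREBPβ at 11 mM) had 3 libraries, replicates a, b and c, which gave 12 libraries of amplified RNA. All groups carried an adenovirus, and no cells without virus were analysed here. Total counts per library were 25754488 to 32938546 with GFP at 2 mM, 36219167 to 46654823 with GFP at 11 mM, 28595982 to 57726412 with ChREBPβ at 2 mM and 57088794 to 60531215 with ChREBPβ at 11 mM. A single read was worth between 0.0171 CPM and 0.0367 CPM, depending on the library. Levels are CPM (counts scaled to a common library size) with TMM factors, which gives a level relative to the bulk of the genes, and are means ± SD of 3 libraries unless a library is named. In RNA from whole cultures, fewer cells that express a gene and less of its RNA in each cell cannot be told apart.

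Mlxipl, the gene that encodes ChREBP, was checked as the target of the virus. With GFP its level was 240.3, 251.8 and 277 CPM in the replicates at 2 mM and 201.8, 212.4 and 207.5 CPM at 11 mM. The ChREBPβ-labelled libraries had 203.3, 211.8 and 198.7 CPM at 2 mM and 200.6, 180.7 and 182.7 CPM at 11 mM. Mlxipl was thus lower in the ChREBPβ-labelled libraries, by 0.33 ± 0.05 (SE) on the log2 scale at 2 mM and by 0.14 ± 0.05 at 11 mM, the latter smaller than 1.2-fold (edgeR, adjusted p = 2.03e-05 and 0.0295, n = 3 per group). Whether reads from the mouse sequence of the virus were counted on the rat gene was not tested. A separate entry named ChREBPb, looked up after the table had been seen, was at 77.8 ± 4.53 CPM with GFP and 90.1 ± 0.504 CPM labelled ChREBPβ at 2 mM. At 11 mM these levels were 68.0 ± 4.63 and 88.0 ± 9 CPM. The log2 fold change of this entry was 0.21 ± 0.06 (SE) at 2 mM and 0.37 ± 0.06 at 11 mM. The well-known ChREBP targets Txnip and Pklr were higher in the ChREBPβ-labelled libraries. The log2 fold change of Txnip was 4.12 ± 0.05 (SE) at 2 mM and 0.93 ± 0.05 at 11 mM (edgeR, adjusted p = 2.12e-21 and 1.54e-12, n = 3 per group). For Pklr it was 1.69 ± 0.05 and 1.08 ± 0.05 (edgeR, adjusted p = 1.52e-16 and 1.72e-13). The paper shows Western blots of ChREBP in INS-1 cells transduced with a ChREBPβ adenovirus, without stating that these were the cultures sequenced. Since Mlxipl counts did not rise with the label, the libraries are called by their label, and every direction below is that of the label.

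Markers of β cells and of other cell types were read as a check of the cell line. All 10 β-cell markers passed the filter on low counts, and their summed level was 23810 to 26810 CPM with GFP at 2 mM, 19380 to 21200 CPM with GFP at 11 mM, 13020 to 13420 CPM labelled ChREBPβ at 2 mM and 12300 to 12830 CPM labelled ChREBPβ at 11 mM. Ins1, the main insulin gene of the line, had mean levels of 11680, 8785, 4309 and 3605 CPM in the same order of groups, while Slc2a2, the glucose transporter, rose in this order (437.4, 489.2, 617.8 and 674.8 CPM). Of 5 markers of other islet endocrine cells 2 passed the filter, led by Gcg, and the list summed to 1590 to 1668, 1606 to 1721, 430.9 to 441.9 and 452.4 to 502.8 CPM. Sst, which marks δ cells, had at most 2 reads in any library.

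The cell types that answer to Hedgehog ligands in many organs are mesenchymal. Of 9 markers of fibroblasts and mesenchyme with an entry, 5 passed the filter, Dcn and Lum had 0 reads in all 12 libraries, and Col3a1 had at most 1. The list summed to 228.4 to 238.3, 187.9 to 194.1, 112 to 112.8 and 105.8 to 110.6 CPM in the order of groups above, and most of it came from Thy1. Against the direction of the sum, Pdgfrb had means of 0.00972, 0.00737, 0.656 and 0.824 CPM and Acta2 of 0.0958, 0.124, 0.250 and 0.353 CPM. Of 6 duct markers 4 passed; the sum, led by Krt7, was 130.3 to 141.3, 105.6 to 116, 164 to 173.3 and 153.5 to 157.5 CPM, with Cftr at 0 reads and Krt19 at no more than 2. Sox9 in this list had means of 0.838, 1.08, 8.19 and 8.88 CPM. Schwann cell markers passed in 3 of 4 and summed to 85.4 to 94.9, 98.5 to 101.7, 101.2 to 106.7 and 106.8 to 107.6 CPM, led by Mbp, and Sox10 had at most 2 reads. Endothelial markers passed in 2 of 5 and summed to 2.32 to 3.09, 2.87 to 3.09, 1.92 to 2.03 and 1.52 to 2.54 CPM, led by Vwf, with Emcn at 0 reads. Macrophage markers passed in 2 of 5 and summed to 0.481 to 0.551, 0.536 to 0.677, 0.695 to 1.22 and 0.818 to 1.15 CPM, led by Cd68, with Ptprc and Cd14 at 0 reads. The share of these markers in any difference described below was not tested.

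Of the 9 Hedgehog genes, 4 passed the filter on low counts (Ihh, Dhh, Ptch1 and Hhip) along with 14669 genes in all. The groups did not overlap for 3 of these 4 genes between GFP and ChREBPβ at 2 mM and for 3 of 4 at 11 mM, where 63.3% and 56.1% of all genes tested did not overlap. Between 11 and 2 mM glucose the groups did not overlap for 4 of 4 with GFP and for 1 of 4 with ChREBPβ, against 42% and 28.9% of all genes. Nothing is read from these counts, since the genes were chosen over the same groups.

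Among the ligands, Ihh (Indian hedgehog, known for its role in bone growth) had the widest range. With GFP at 2 mM glucose it had 3, 7 and 6 reads, or 0.110, 0.204 and 0.192 CPM. With GFP at 11 mM it had 67, 39 and 83 reads, or 1.48, 1.04 and 1.76 CPM. The ChREBPβ-labelled libraries had 461, 882 and 880 reads at 2 mM (16.5, 15.7 and 15.8 CPM) and 1131, 1090 and 995 reads at 11 mM (19.3, 19.1 and 18.2 CPM). The 4 groups thus stood in the order GFP at 2 mM, GFP at 11 mM, ChREBPβ at 2 mM and ChREBPβ at 11 mM, and no neighbours in this order overlapped. The last step went from a highest value of 16.5 CPM to a lowest of 18.2 CPM, which lie close together as a ratio.

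The log2 fold change of Ihh in ChREBPβ-labelled libraries against GFP was 6.51 ± 0.19 (SE) at 2 mM and 3.70 ± 0.12 at 11 mM. As a ratio of pooled counts, Ihh was 92.1 times as high at 2 mM, with a 95% counting interval of 56.6 to 161 that rests on 16 reads in the GFP libraries, and 13 times as high at 11 mM (11.2 to 15.1). Because the RNA was amplified without molecular identifiers, intervals and detection limits here cover counting error only. From 2 to 11 mM glucose, the log2 fold change was 3.05 ± 0.28 with GFP, where the ratio was 8.44 (5.06 to 15.1), and 0.24 ± 0.09 with ChREBPβ, where the ratio was 1.19 (1.13 to 1.25). The difference between the ChREBPβ effects at 11 and 2 mM was -2.81 ± 0.31 on the log2 scale. In other words, the step between glucose concentrations was wide with GFP and narrow in the ChREBPβ-labelled libraries.

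**Figure D1:**
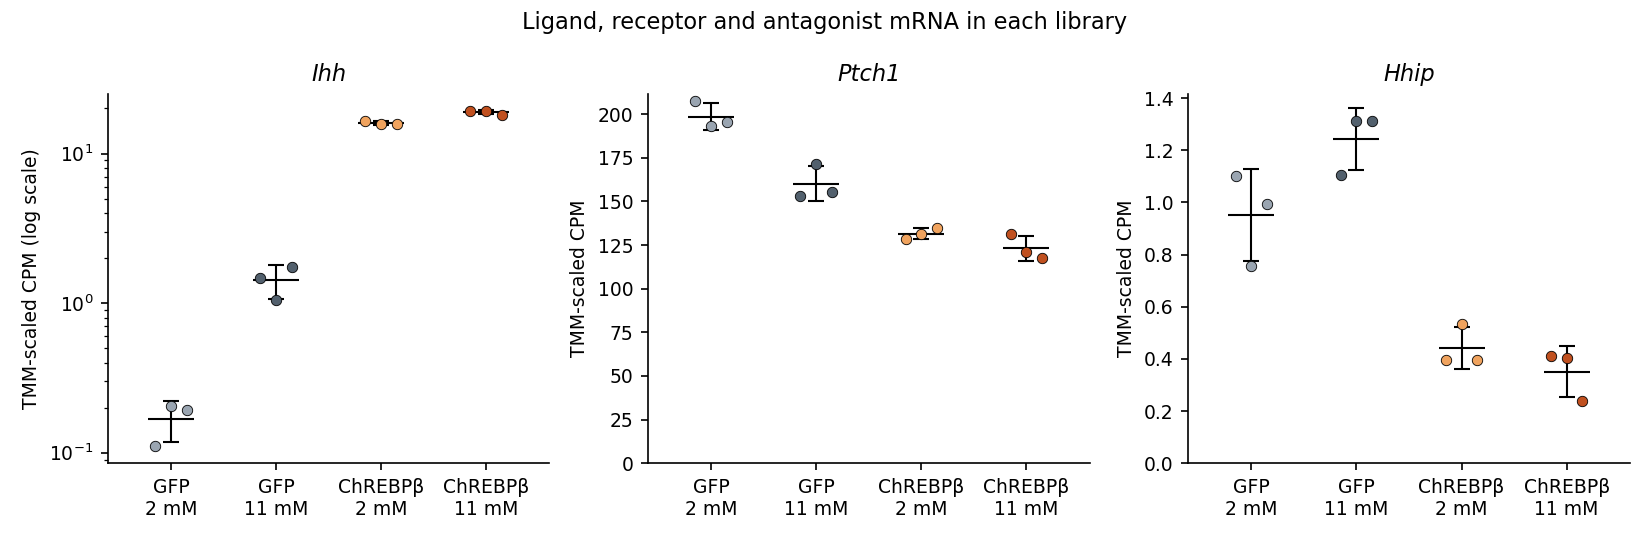
TMM-scaled CPM of Ihh (log axis), Ptch1 and Hhip (axes from 0) in each library, by virus and glucose. Points are libraries (replicates a, b and c from left to right), and bars are the mean ± SD of 3. Ihh climbs from 0.110 to 0.204 CPM with GFP at 2 mM to 18.2 to 19.3 CPM with ChREBPβ at 11 mM, while Ptch1 and Hhip are lower in all 6 ChREBPβ-labelled libraries than in all 6 with GFP.

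Dhh (Desert hedgehog, known from the testis and peripheral nerve) had few reads. The counts were 2, 6 and 3 with GFP at 2 mM, 13, 12 and 11 with GFP at 11 mM, 5, 6 and 7 with ChREBPβ at 2 mM and 7, 3 and 21 with ChREBPβ at 11 mM. In CPM these groups were at 0.115 ± 0.0532, 0.281 ± 0.0448, 0.137 ± 0.0375 and 0.185 ± 0.175. With GFP, all libraries at 11 mM were above those at 2 mM, and the log2 fold change was 1.22 ± 0.65. Every other pair of groups set against each other overlapped; GFP and ChREBPβ at 11 mM did so through replicate c of ChREBPβ alone. There the log2 fold change with the ChREBPβ label was -0.60 ± 0.53, and without that replicate it was -1.66. With the ChREBPβ label the log2 fold change from 2 to 11 mM was 0.48 ± 0.60, and without replicate c at 11 mM, which held the 21 reads, it was -0.58. In the RefSeq annotation (GRCr8 assembly) Dhh overlaps Tuba1c, a tubulin gene. Whether the counting used strand is not given in the sources used here, and whether exons of these genes overlap was not tested. Without strand, reads from a stretch that both genes share could not be told apart.

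Shh (Sonic hedgehog) had 0 reads in 11 of 12 libraries and 2 reads in replicate b of ChREBPβ at 2 mM. In the 3 groups with 0 reads, the limit set by 3 reads over a group was 0.0324 CPM with GFP at 2 mM, 0.0231 CPM with GFP at 11 mM and 0.0176 CPM with ChREBPβ at 11 mM. Shh mRNA was therefore not detectable at this depth in these groups, and no fold change is given.

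Ptch1, the receptor that binds all 3 ligands, had 3595 to 7701 reads in every library. With GFP its level was 207.3, 193 and 195.4 CPM at 2 mM and 152.9, 171.4 and 155.5 CPM at 11 mM. The ChREBPβ-labelled libraries had 128.7, 131.1 and 134.8 CPM at 2 mM and 131.3, 120.8 and 117.4 CPM at 11 mM. The highest group was GFP at 2 mM, followed by GFP at 11 mM, and neither overlapped with any other group. The groups labelled ChREBPβ were lowest and overlapped each other.

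For Ptch1 the log2 fold change in ChREBPβ-labelled libraries was -0.59 ± 0.05 at 2 mM and -0.38 ± 0.05 at 11 mM. From 2 to 11 mM glucose it was -0.31 ± 0.05 with GFP and -0.10 ± 0.05 with ChREBPβ, and the difference between the ChREBPβ effects was 0.22 ± 0.07. In group means Ptch1 thus stood in the reverse order of Ihh.

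Promoters, from 250 bases before to 50 bases after the start of the gene, were read from RefSeq (GRCr8 assembly) for Dhh, Ptch1, Hhip, Smo, Gli2 and Gli3, 6 of the 9 genes. The other genes are Ihh, Shh and Gli1. The promoters were searched on both strands for the core letters bound by Gli factors, GACCACCCA, and for the E-box CACGTG, also as a pair of E-boxes with 5 bases between. The Gli letters occurred once in the Ptch1 promoter, as the reverse complement TGGGTGGTC beginning at base -172 from the start, and in none of the other 5. They were present in 129 of 33469 promoters of this length, or 0.385%. The E-box was in none of the 6 and in 6.42% of all promoters, and the pair was in 1 promoter of all. A match is a description of letters and no evidence of binding. For Hhip the 50 bases after the annotated start begin with atg, the letters of a start codon. Whether its transcription begins further upstream was not tested, and letters further upstream were not searched. The absence of these letters is therefore given for the printed Hhip stretch only. These stretches are shown 5′ to 3′ for the receptor genes that were lower in the ChREBPβ-labelled libraries, with the Gli letters in capitals. They are chr17:1555321-1555620 (plus strand) for Ptch1 and chr19:44767788-44768087 (plus strand) for Hhip.
Ptch1: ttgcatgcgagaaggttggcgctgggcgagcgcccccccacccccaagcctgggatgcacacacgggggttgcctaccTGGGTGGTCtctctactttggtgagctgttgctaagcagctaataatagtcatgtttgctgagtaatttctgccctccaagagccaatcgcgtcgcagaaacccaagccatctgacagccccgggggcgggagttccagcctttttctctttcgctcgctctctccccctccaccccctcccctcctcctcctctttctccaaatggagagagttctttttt
Hhip: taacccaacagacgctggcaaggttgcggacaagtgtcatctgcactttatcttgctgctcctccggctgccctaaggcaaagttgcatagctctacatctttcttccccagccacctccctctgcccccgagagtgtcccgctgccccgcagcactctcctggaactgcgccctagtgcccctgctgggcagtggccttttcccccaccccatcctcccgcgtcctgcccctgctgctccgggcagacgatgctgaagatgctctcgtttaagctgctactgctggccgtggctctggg

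Hhip, a membrane-anchored protein that binds Hedgehog ligands and keeps them from the receptor, had 11 to 62 reads per library. With GFP it was at 1.10, 0.758 and 0.994 CPM at 2 mM and at 1.11, 1.31 and 1.31 CPM at 11 mM. Those labelled ChREBPβ had 0.394, 0.535 and 0.394 CPM at 2 mM and 0.409, 0.403 and 0.238 CPM at 11 mM. All 6 ChREBPβ-labelled libraries were below all 6 with GFP. The groups with GFP barely separated, with 1.102 CPM the highest value at 2 mM and 1.106 CPM the lowest at 11 mM, and those labelled ChREBPβ overlapped.

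The log2 fold change of Hhip in ChREBPβ-labelled libraries was -1.07 ± 0.30 at 2 mM and -1.81 ± 0.28 at 11 mM. By pooled counts this was a ratio of 0.48 (95% counting interval 0.341 to 0.671) and 0.284 (0.208 to 0.384). From 2 to 11 mM glucose the log2 fold change was 0.39 ± 0.27 with GFP and -0.35 ± 0.32 with ChREBPβ, and the difference between the ChREBPβ effects was -0.74 ± 0.41. Hhip and Ptch1 were therefore both lower with the ChREBPβ label, whereas at 11 mM against 2 mM with GFP, Ptch1 was lower and Hhip was not.

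Smo, the membrane protein that carries the signal onward once Ptch1 has bound ligand, had 56 reads in all 12 libraries together. The counts were 0, 8 and 5 with GFP at 2 mM, 2, 2 and 8 with GFP at 11 mM, 4, 4 and 8 with ChREBPβ at 2 mM and 6, 4 and 5 with ChREBPβ at 11 mM. Pooled over each group, these were 0.14 CPM (95% counting interval 0.0747 to 0.24), 0.0924 CPM (0.0478 to 0.161), 0.114 CPM (0.0654 to 0.186) and 0.0881 CPM (0.0493 to 0.145). All 4 groups overlapped, and a difference in Smo was not detectable at this depth.

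The Gli factors, which carry the signal to the genome, were at the edge of detection. Gli1, an activator and a target of the pathway, had 0 reads in 11 libraries and 1 read in replicate a of ChREBPβ at 11 mM. Over a group, 0 reads allow up to 0.0324 CPM with GFP at 2 mM, 0.0231 CPM with GFP at 11 mM and 0.0214 CPM with ChREBPβ at 2 mM. Gli2, the main activator in many tissues, had 0, 4 and 5 reads with GFP at 2 mM, 0, 2 and 1 with GFP at 11 mM, 0, 5 and 3 with ChREBPβ at 2 mM and 3, 2 and 5 with ChREBPβ at 11 mM. Its groups overlapped in each comparison, with a pooled ratio from 2 to 11 mM with GFP of 0.238 (95% counting interval 0.0415 to 0.954) on 9 and 3 reads. Gli3, mostly known as a repressor, had 7, 3 and 1 reads with GFP at 2 mM, 2, 3 and 0 with GFP at 11 mM, 0, 1 and 1 with ChREBPβ at 2 mM and 1, 1 and 1 with ChREBPβ at 11 mM. The pooled ratio of Gli3 at 2 mM, labelled ChREBPβ to GFP, was 0.121 with a 95% counting interval of 0.013 to 0.552, on 2 and 11 reads. The lowest GFP library and the highest library labelled ChREBPβ in that comparison both had a single read, so their order in CPM follows from their library totals. In the RefSeq annotation Gli1 overlaps the neighbouring gene Arhgap9, Gli3 a pseudogene, and Shh a long noncoding RNA.

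**Figure D2:**
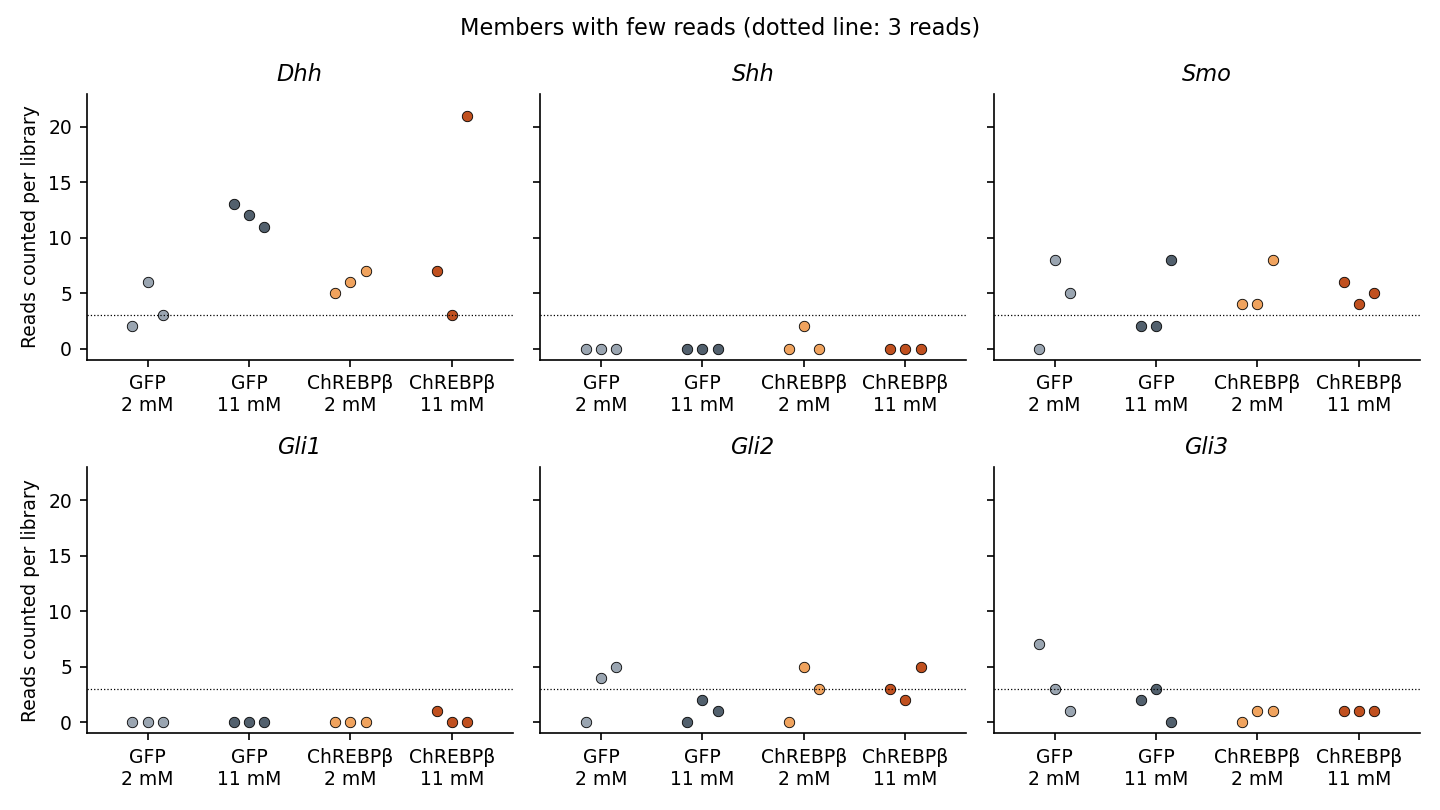
Reads counted per library for Dhh, Shh, Smo, Gli1, Gli2 and Gli3, by virus and glucose, on a common axis that includes 0. Points are libraries, replicates a, b and c from left to right, and the dotted line is at 3 reads. Gli1 and Shh stay at or below 2 reads in every library, and the highest count in the plot is 21 for Dhh in replicate c of ChREBPβ at 11 mM.

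The genes with the pattern most like Ihh over the 12 libraries, by Pearson correlation of log2 CPM across 14668 other genes, were Pklr (0.998), Ccdc61 (0.998), Chst8 (0.998), Cspg5 (0.997) and Rgs16 (0.997). The 12 libraries form 4 groups, so these correlations mostly describe the group means. Pklr, the glycolytic enzyme pyruvate kinase L/R, had means of 129.5, 211, 416.6 and 446.4 CPM in the order GFP at 2 mM, GFP at 11 mM, ChREBPβ at 2 mM and ChREBPβ at 11 mM. Rgs16, a regulator of G protein signalling, had 71.0, 126.8, 259.7 and 288.6 CPM, and Chst8, a sulfotransferase, had 4.48, 12.5, 61.5 and 66.2 CPM. Each of these rose in the same order of groups as Ihh. Ccdc61 had 33.2, 65.6, 137.1 and 150.6 CPM, and Cspg5 had 14.3, 22.3, 42.8 and 46.7 CPM.

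Most like Ptch1 were Slc22a23 (0.997), Fmn2 (0.993), Eml5 (0.991), Dlc1 (0.991) and Pfkfb2 (0.990). Slc22a23, of a family of organic ion carriers, had means of 27.1, 21.0, 15.9 and 14.8 CPM, and Fmn2, an actin nucleator, had 26.1, 20.3, 15.6 and 14.6 CPM in the same order of groups. Pfkfb2, an enzyme that sets the level of fructose 2,6-bisphosphate, had 89.6, 73.4, 58.1 and 51.5 CPM. In all of these GFP at 2 mM was highest and ChREBPβ at 11 mM lowest, as for the group means of Ptch1. Eml5 had 39.2, 27.1, 18.6 and 15.3 CPM, and Dlc1 had 41.4, 28.0, 20.8 and 16.9 CPM.

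The rest of the pathway was read from 6 lists of 87 genes that hold none of the 9. These lists too were chosen with earlier results of these data known. Their counts, medians and adjusted p-values are therefore not independent evidence about the pathway. Of these 84 had an entry and 74 passed the filter, while 6 of the remaining 10 had 0 reads in all libraries (Gas1, Foxf1, Bmp4, Spp1, Sfrp1 and Osr2). Mosmo, Foxf2 and Pthlh were not analysed here. Differential expression was tested with edgeR over all 14669 genes, and a gene was called where its adjusted p was under 0.05 and it changed by 1.2-fold or more. In the ChREBPβ-labelled libraries, 10 of the 74 genes were called higher and 31 lower at 2 mM, where 21% of all genes tested were called higher and 23.2% lower. At 11 mM 9 were called higher and 22 lower, against 14.3% and 19.1% of all genes. The median log2 fold change of the lists was -0.23 at 2 mM and -0.14 at 11 mM, beside -0.02 over all genes in both.

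**Figure D3:**
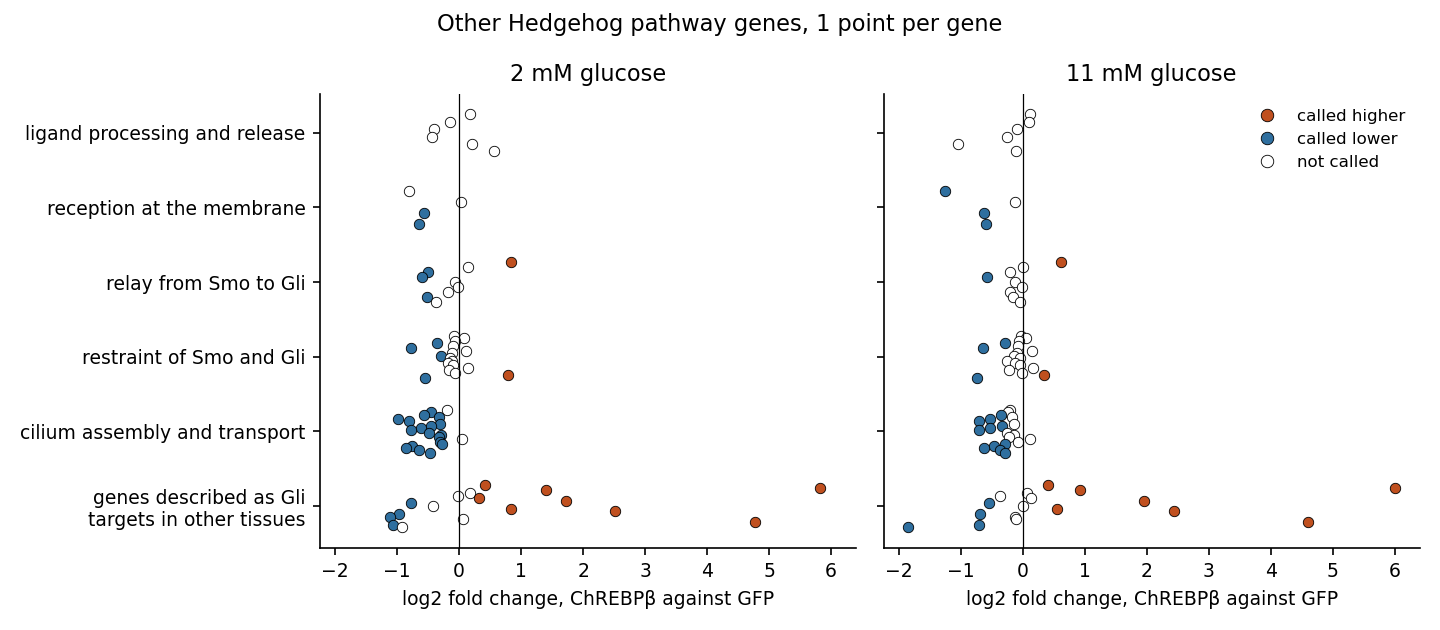
Log2 fold change of each of 74 pathway genes in ChREBPβ-labelled libraries against GFP at 2 mM and at 11 mM glucose, by list; each point is a gene, and the same horizontal scale is used for both panels. Orange points were called higher, blue points lower, and white points were not called. Cilium genes lie mostly below 0, and the points farthest to the right are Ccnd1 (5.82 and 6.01) and Snai1 (4.78 and 4.60).

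Among genes that process and release the ligands, 0 of 6 tested were called at either glucose concentration with edgeR, and 0 with DESeq2. At an unadjusted p under 0.05 there were 2 at 2 mM and 0 at 11 mM. With edgeR, 21% of all genes tested were called higher and 23.2% lower at 2 mM, and 14.3% and 19.1% at 11 mM. This list holds Hhat, which attaches palmitate to the ligands, and Disp1, which releases them. Disp1 was at 13.6, 14.7, 15.3 and 15.9 CPM in the order of groups above, with a log2 fold change of 0.17 ± 0.08 at 2 mM and 0.12 ± 0.07 at 11 mM labelled ChREBPβ. Hhat was at 1.62, 1.28, 1.25 and 1.18 CPM, with -0.41 ± 0.25 and -0.10 ± 0.24. Disp1 and Hhat lie outside the rule for named genes and were added after their values were seen, to describe this list.

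Among 4 tested genes of reception at the membrane, 0 were called higher, and 2 were called lower at 2 mM and 3 at 11 mM. Over all genes tested, 21% and 14.3% were called higher and 23.2% and 19.1% lower at 2 and 11 mM. Lrp2, the endocytic receptor megalin, fell by 0.57 and 0.62 on the log2 scale (edgeR, adjusted p = 0.00034 and 0.000109).

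Of 9 genes that relay the signal from Smo to Gli, 1 was called higher and 3 lower at 2 mM, and 1 higher and 1 lower at 11 mM. The shares of all genes tested were 21% higher and 23.2% lower at 2 mM, and 14.3% and 19.1% at 11 mM. Arrb1, a β-arrestin that can carry Smo to the cilium, rose by 0.83 ± 0.11 and 0.61 ± 0.10 on the log2 scale at 2 and 11 mM (edgeR, adjusted p = 3.86e-06 and 7.14e-05). Evc, a ciliary partner of Smo, fell by 0.60 and 0.57 (edgeR, adjusted p = 6.14e-08 and 1.17e-07). Kif7, the kinesin that places Gli at the ciliary tip, was not called, with -0.18 ± 0.07 at 2 mM and -0.21 ± 0.07 at 11 mM, both smaller than 1.2-fold (edgeR, adjusted p = 0.0385 and 0.0206). With counts scaled by library totals it was called lower at both concentrations, at -0.28 and -0.29.

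Of 18 genes that restrain Smo and Gli, 1 was called higher and 4 lower at 2 mM, and 1 higher and 3 lower at 11 mM. Among all genes tested, 21% were called higher and 23.2% lower at 2 mM, and 14.3% and 19.1% at 11 mM. The list did not exceed these shares in either direction, so the genes named here do not set it apart. Sufu, which holds Gli factors in the cytoplasm, had, with GFP, 8.49, 7.43 and 7.18 CPM at 2 mM glucose and 10.1, 10.7 and 11.4 CPM at 11 mM. With the ChREBPβ label, Sufu had 12.8, 12.9 and 14.1 CPM at 2 mM and 15.2, 13.3 and 12.4 CPM at 11 mM. All ChREBPβ-labelled libraries were above all libraries with GFP. Sufu thus changed by 0.79 ± 0.10 on the log2 scale at 2 mM and by 0.35 ± 0.09 at 11 mM (edgeR, adjusted p = 7.09e-07 and 0.00268). The 11 mM call was lost without replicate a of ChREBPβ at 11 mM, where the change was 0.26, under 1.2-fold, and also when counts were scaled by library totals alone. Gpr161, a ciliary receptor that keeps protein kinase A active, fell by 0.78 and 0.64 (edgeR, adjusted p = 0.00137 and 0.0062). Tulp3, which brings Gpr161 into the cilium, fell by 0.55 and 0.73 (edgeR, adjusted p = 1.12e-06 and 2.13e-08), and Cul3, part of a ubiquitin ligase for Gli factors, fell by 0.36 and 0.29 (edgeR, adjusted p = 2.2e-06 and 3.92e-05).

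Genes of cilium assembly and transport, on which the response of Smo and Gli depends, were called lower in 18 of 20 at 2 mM and in 11 of 20 at 11 mM, with 0 called higher at either. The share of all genes tested called lower was 23.2% at 2 mM and 19.1% at 11 mM. The median log2 fold change of the list was -0.47 at 2 mM and -0.28 at 11 mM, beside -0.02 over all genes. All 11 genes called at 11 mM were also called lower at 2 mM. Ift140, a part of the transport complex that returns cargo from the ciliary tip, had, with GFP, 34.9, 34.1 and 36.6 CPM at 2 mM glucose and 24.5, 22.4 and 21.6 CPM at 11 mM. Its level with the ChREBPβ label was 16.6, 18.02 and 18.4 CPM at 2 mM and 16.5, 16.2 and 15.2 CPM at 11 mM. The libraries with GFP at 2 mM stood highest, and all those with GFP were above all those labelled ChREBPβ.

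Ift140 changed by -0.99 ± 0.06 on the log2 scale at 2 mM and by -0.52 ± 0.06 at 11 mM (edgeR, adjusted p = 8.42e-11 and 1.33e-06). Ift172 and Ift88, parts of the complex that carries cargo toward the tip, fell by 0.81 and 0.77 at 2 mM and by 0.71 and 0.70 at 11 mM (edgeR, adjusted p = 1.23e-08, 1.28e-05, 1.01e-07 and 4.32e-05). Tctn1, of the transition zone at the base of the cilium, fell by 0.85 and 0.62 (edgeR, adjusted p = 4.16e-10 and 4.33e-08). The genes not called at 2 mM were Kifap3, a subunit of the kinesin motor, and Arl13b, a small GTPase of the ciliary membrane, with log2 fold changes of 0.05 ± 0.05 and -0.19 ± 0.09. Kifap3 and Arl13b were named after their values were seen.

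Of 17 genes described as Gli targets in other tissues, 8 were called higher and 4 lower at 2 mM, and 7 higher and 4 lower at 11 mM. Of all genes tested, 21% were called higher and 23.2% lower at 2 mM, and 14.3% and 19.1% at 11 mM, so the lower calls lay near that share. The median log2 fold change of this list was 0.18 at 2 mM and 0.07 at 11 mM, beside -0.02 over all genes. Ccnd1, the cyclin of the G1 phase, had, with GFP, 1.36, 1.66 and 1.89 CPM at 2 mM glucose and 1.66, 2.01 and 2.35 CPM at 11 mM. The ChREBPβ-labelled libraries stood at 86.6, 101 and 92.4 CPM at 2 mM and 122.3, 132.7 and 134.7 CPM at 11 mM. The groups with GFP overlapped each other and stood far below both groups labelled ChREBPβ.

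Ccnd1 changed by 5.82 ± 0.10 on the log2 scale at 2 mM and by 6.01 ± 0.09 at 11 mM (edgeR, adjusted p = 1.83e-19 and 3.33e-20). Snai1, a repressor known from epithelial to mesenchymal transition, rose by 4.78 ± 0.22 and 4.60 ± 0.18 from 5 to 18 reads per library with GFP to 184 to 549 reads (edgeR, adjusted p = 2.67e-13 and 5.77e-14). Its value at 2 mM ranged from 4.50 to 5.42 over the alternatives. The GFP libraries there had 5, 6 and 15 Snai1 reads, the most in replicate c. Mycn, a growth-promoting transcription factor, rose by 2.52 ± 0.14 and 2.44 ± 0.12 (edgeR, adjusted p = 4.79e-12 and 2.69e-12). Hsd11b2, which inactivates glucocorticoids, rose by 1.73 ± 0.17 and 1.96 ± 0.14 (edgeR, adjusted p = 2.5e-08 and 7.38e-10). Nkx2-2, a factor of β-cell identity, fell by 0.97 and 0.69 (edgeR, adjusted p = 4.69e-12 and 1.01e-09). Gli1, Gli2 and Gli3 had the low counts given above in the same libraries, and whether these genes answered to Gli factors here was not tested.

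From 2 to 11 mM glucose with GFP, 4 of the 74 pathway genes were called higher and 17 lower, where 10.2% of all genes were called higher and 10% lower. Cilium genes made up 11 of the 17 called lower, out of 20 tested, with a median log2 fold change of -0.31 beside -0.002 over all genes. Ift140 fell by 0.62 ± 0.06 (edgeR, adjusted p = 3.41e-07). Sufu rose by 0.48 ± 0.10 and Ccnd2, another G1 cyclin, by 0.73 ± 0.06 (edgeR, adjusted p = 0.000714 and 2.19e-08). This comparison shares the libraries with GFP at 2 mM with the ChREBPβ comparison at 2 mM, so the directions of these comparisons are not independent of each other.

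Under the ChREBPβ label, 2 pathway genes were called higher and 1 lower from 2 to 11 mM glucose, where 0.988% and 2.88% of all genes were called. The genes were Ccnd1, which rose by 0.47 ± 0.06, Hsd11b2, which rose by 0.56 ± 0.13, and Tulp3, which fell by 0.28 ± 0.07 (edgeR, adjusted p = 7.04e-05, 0.00873 and 0.014). The call of Hsd11b2 was lost without replicate c of ChREBPβ at 11 mM (adjusted p = 0.0583). That of Tulp3 was lost without replicate b or c at 2 mM and without replicate a or b at 11 mM, all with ChREBPβ (adjusted p between 0.055 and 0.0673).

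**Figure D4:**
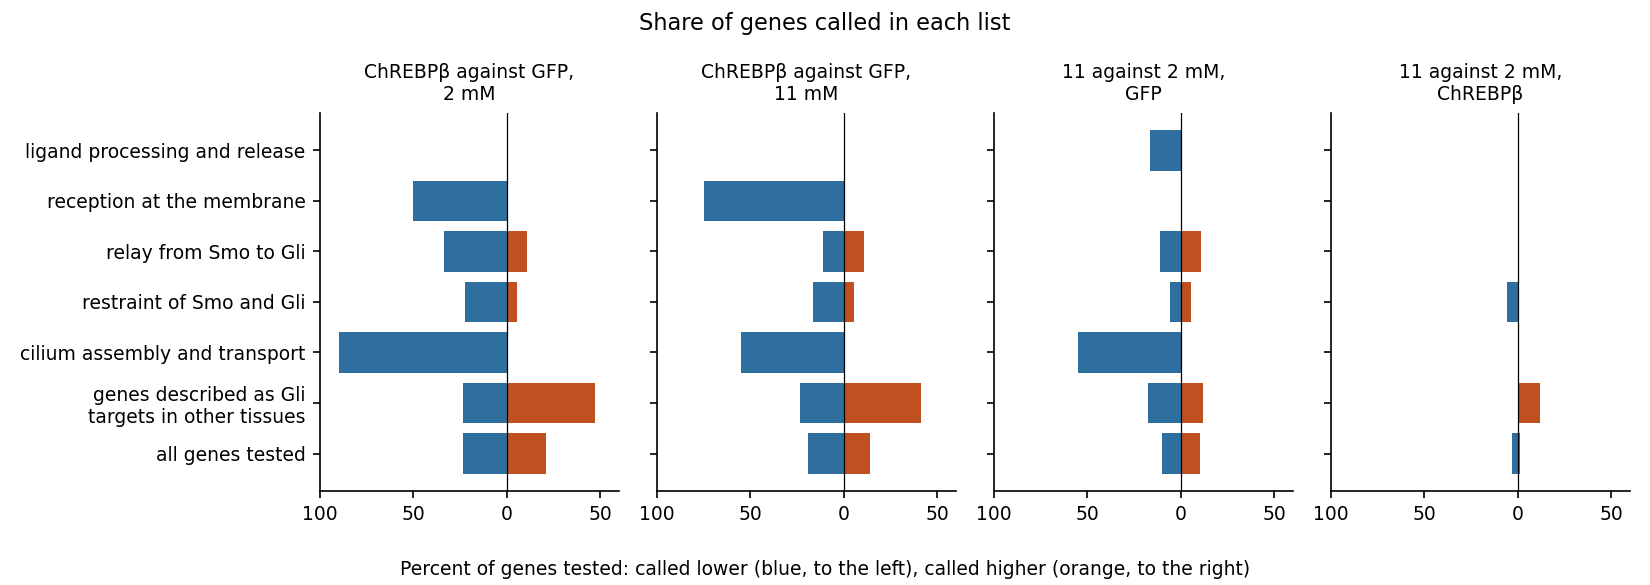
Percent of the tested genes of each list called lower (blue, to the left of 0) and higher (orange, to the right) in each comparison, with all 14669 genes tested in the bottom bar. The longest bar is that of the cilium genes at 2 mM, 18 of 20 called lower, while with ChREBPβ the glucose comparison has 3 calls in all lists together.

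The ChREBPβ effect differed between glucose concentrations for 6 of the 74 genes by the interaction test, 3 with a positive and 3 with a negative difference, where 1.56% of all genes tested were called with a positive and 4.74% with a negative one. These were Ift140, Nkx2-2 and Pdgfra, and Sufu, Ccnd2 and Jag2. The calls of Sufu (adjusted p = 0.04, edgeR) and Nkx2-2 (adjusted p = 0.0257, edgeR) depended on single libraries, and without a library the adjusted p reached 0.115 and 0.0725. Pdgfra, a receptor of mesenchymal cells, had a mean of 7.90 CPM in the libraries with GFP at 2 mM, while the other groups had 4.58, 3.73 and 4.15 CPM, and it fell by 1.12 ± 0.14 at 2 mM (edgeR, adjusted p = 1.08e-06), with -0.13 ± 0.14 at 11 mM. Scaled by library totals instead of TMM, the median of all genes was -0.12 at 2 mM and -0.10 at 11 mM in the ChREBPβ comparisons, and the log2 fold change of Ptch1 was -0.69 and -0.46.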

How the data were processed

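RNA of INS-1 cells from 12 samples, grouped by their labels into 4 groups of 3, was amplified by the authors and sequenced, and the authors deposited raw read counts per gene without normalization. The submitters' processing notes name the build Rnor_6.0 and edgeR; the aligner and the counting program are not given in the sources used here. Beside the counts, the authors deposited other values, the group means, which equal the means of the counts in all 28728 entries to within 1e-04 and were not used further. An entry without a gene name, with 0.0043% to 0.00601% of a library's counts, was left out, and 2 names that occurred more than once were kept as separate entries.

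Values were computed with edgeR 4.0.16 and DESeq2 1.42.0 (R 4.3.3, with limma 3.58.1), and plotted with Python 3.11.15 and matplotlib 3.10.9. Genes were filtered with filterByExpr by group, scaled by TMM and fitted in 1 quasi-likelihood model of all 12 libraries, with Benjamini-Hochberg adjustment over all 14669 genes. Log2 CPM used a prior count of 2. The SE is the log2 fold change divided by the square root of F. Libraries of the same group all differed beyond sampling noise (chi-square per degree of freedom 3.06 to 16.6). The p-values measure the spread between these samples, which the study describes as independent experiments.

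The Hedgehog genes and the lists were chosen with earlier results of these data known. Named list genes are the up to 4 per list with the largest mean change among those called in the same direction at both glucose concentrations, all those called in the interaction, and Sufu and Kif7, with some items of the lists not reported here; the pattern most alike was sought for the 2 Hedgehog genes with the widest range of group means and at least 1 CPM. Ratios of pooled counts have exact 95% intervals, and a count of 0 was taken to allow 3 reads. Alternatives were DESeq2, RLE and upper quartile factors, library totals, other filters, a replicate block, other minimum fold changes, fits of the 2 groups compared, and leaving out each library.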

Additional observations from a re-analysis of the deposited data

Results flagged for a closer look

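The ChREBPβ effect differed between 11 and 2 mM glucose for 6 pathway genes, by the interaction term of the edgeR fit. The difference is the log2 fold change at 11 mM minus that at 2 mM, and groups of 3 libraries were not searched for outlying samples. Pdgfra had a difference of 0.98 ± 0.20 (SE, edgeR, adjusted p = 0.00338), Ift140 of 0.47 ± 0.09 (adjusted p = 0.0026, edgeR) and Nkx2-2 of 0.27 ± 0.07 (adjusted p = 0.0257, edgeR); all 3 were called lower at 2 mM, by a larger amount than at 11 mM. Ccnd2 had -0.48 ± 0.08 (adjusted p = 0.000899, edgeR), Jag2, a Notch ligand, -0.29 ± 0.05 (adjusted p = 0.00185, edgeR) and Sufu -0.44 ± 0.13 (adjusted p = 0.04, edgeR); all 3 were called higher at both concentrations, by a larger amount at 2 mM.

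For Sufu the interaction was called in 9 of 19 alternatives. It was lost without replicate b or c of GFP at 2 mM, replicate c of GFP at 11 mM, any of the replicates of ChREBPβ at 2 mM, or replicate b or c of ChREBPβ at 11 mM, with an adjusted p between 0.0608 and 0.115 (edgeR), and with upper quartile factors or library totals. For Nkx2-2 it was called in 14 of 19, and lost without replicate c of GFP at 2 mM, replicate b of GFP at 11 mM, ChREBPβ replicate a or c at 2 mM, or ChREBPβ replicate a at 11 mM, with an adjusted p between 0.0431 and 0.0725 and a difference between 0.23 and 0.28. Jag2 was lost with upper quartile factors alone, and Pdgfra, Ift140 and Ccnd2 were called in all 19.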

How the results depend on the processing

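The counts of pathway genes called stayed within 1.5 times the reported count in all 99 values from other tools, scalings, filters and left-out libraries. Leaving out a library gave 39 to 42 calls for ChREBPβ against GFP at 2 mM, 29 to 33 at 11 mM, 15 to 22 for glucose with GFP, 2 to 4 for glucose with ChREBPβ and 4 to 6 for the interaction. The fold change required mattered more. With a minimum of 2-fold the counts were 7, 6, 0, 0 and 0 in this order, and with no minimum the glucose comparisons had 32 with GFP and 10 with ChREBPβ; these follow from the threshold itself. Upper quartile factors changed the interaction calls from 3 higher and 3 lower to 4 and 1, and library totals changed the glucose calls with ChREBPβ from 2 higher and 1 lower to 2 and 2.

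Deviations from group means gave no sign that replicate letters pair the libraries. They correlated between -0.114 and 0.0644 in 18 pairs with the same letter, and between -0.0871 and 0.159 in 36 pairs with different letters. With 3 libraries per group this cannot show that the experiments were unmatched. With the letter as a replicate block the counts were 41, 31, 20, 3 and 6, and Ift88 in the glucose comparison with GFP was the sole named gene to lose its call. Of 383 log2 fold changes of Hedgehog genes, 378 moved by less than the SD between replicates. The change of Dhh with glucose in the ChREBPβ-labelled libraries, 0.48, ranged from -0.58 (without replicate c at 11 mM) to 0.92 when a library was left out, and its ChREBPβ effect at 11 mM, -0.60, was -1.66 without the same replicate; the cause was not tested. Ihh had too few reads for the filter of 10 counts in every library. Levels were not compared between genes by length, since no transcript lengths were used here. Depth limits Shh, Smo and the Gli factors.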
